A study of Rattus norvegicus with 9 samples.

Results

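A set of 10 genes that mark macrophages or take part in presenting antigen on MHC class II were followed across the pubococcygeus muscle of rats: Ptprc, Cd68, Cd163, Mrc1, Csf1r, Adgre1, Itgam, Lyz2, Cd74 and RT1-Da. Members were the rows of the deposited tables that carry one of these 10 symbols, and where a symbol stood on several rows the one with the highest mean count was taken, which applied to Mrc1 with 2 rows. Of the 10 genes, 9 had a row among the 30518 rows of the tables, and all 9 passed the filter on low counts. Itgam, which encodes integrin alpha M, was not analysed here. The study asked how pelvic floor electrical stimulation acts on the muscle of rats with a model of stress urinary incontinence (SUI). Each of 3 groups of 8 female Sprague-Dawley rats is represented by 3 RNA-seq libraries. Rats of the blank group were left untreated. Rats of the SUI group underwent bilateral ovariectomy and then vaginal distension for 4 h by an 8 Fr balloon catheter that held 3 mL of saline and carried a weight of 120 g, and received nothing further. Rats of the stimulated group had the same operation and, from 1 week later, transvaginal stimulation at 50 Hz, 20 mA and a pulse width of 200 µs for 30 min a day on 5 days a week over 2 weeks. No group had ovariectomy or distension alone, and none was handled with the stimulator switched off, so the parts of each procedure cannot be told apart. The library names call the SUI group sham, and the titles, which describe the full model, were followed. The labels number the libraries without saying how they relate to the rats, so the p-values measure the spread between libraries, which may be technical.

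Macrophages of skeletal muscle clear dead fibres and debris, take up haemoglobin and glycoproteins through scavenger receptors, and depend on signals through the receptor of colony-stimulating factor 1. Antigen presenting cells load peptides onto MHC class II, a pair of alpha and beta chains that is held empty on its way to the endosome by the invariant chain, Cd74. The class II genes and Cd74 are switched on together by the regulator Ciita, which binds no DNA itself but docks on factors at the X and Y boxes of their promoters, while many genes of the myeloid lineage depend on the factor PU.1.

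RT1-Da and Cd74 varied alike across the libraries (r = 0.96), which was not computed for other class II genes. The promoter stretch of RT1-Da is shown with those of the class II chains RT1-Db1 and RT1-Ba and of Cd74. Each is the 250 bases before the gene's start in RefSeq on build GRCr8, 5′ to 3′ on the gene's strand, at chr20:4515165-4515414 (plus strand) for RT1-Da, chr20:4560163-4560412 (minus) for RT1-Db1, chr20:4576807-4577056 (plus) for RT1-Ba and chr18:56526956-56527205 (plus) for Cd74. Capitals mark GCAAC, a core of the X box, and ATTGG, the inverted CCAAT of the Y box, which reads CCAAT where it lies on the other strand.
RT1-Da: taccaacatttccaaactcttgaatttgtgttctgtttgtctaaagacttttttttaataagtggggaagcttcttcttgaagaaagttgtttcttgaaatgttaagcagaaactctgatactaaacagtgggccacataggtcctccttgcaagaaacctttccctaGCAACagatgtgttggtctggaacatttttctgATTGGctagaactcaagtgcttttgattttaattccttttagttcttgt
RT1-Db1: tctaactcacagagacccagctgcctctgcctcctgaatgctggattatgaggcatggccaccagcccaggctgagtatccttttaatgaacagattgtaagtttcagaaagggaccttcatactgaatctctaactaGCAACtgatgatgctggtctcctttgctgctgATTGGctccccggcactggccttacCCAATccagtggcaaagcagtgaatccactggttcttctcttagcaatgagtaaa
RT1-Ba: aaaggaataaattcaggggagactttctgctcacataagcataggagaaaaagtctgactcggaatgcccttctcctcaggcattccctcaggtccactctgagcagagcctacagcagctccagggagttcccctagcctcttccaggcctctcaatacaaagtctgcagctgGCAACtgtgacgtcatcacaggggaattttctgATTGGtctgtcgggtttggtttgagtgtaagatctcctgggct
Cd74: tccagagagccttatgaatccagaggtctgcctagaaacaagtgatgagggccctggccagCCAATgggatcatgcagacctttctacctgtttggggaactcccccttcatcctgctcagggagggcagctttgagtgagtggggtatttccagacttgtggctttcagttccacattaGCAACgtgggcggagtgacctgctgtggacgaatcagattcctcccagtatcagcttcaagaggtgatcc
In the first 3 promoters GCAAC stood ahead of ATTGG on the gene's strand, with 28 bases between them in RT1-Da, 27 in RT1-Db1 and 28 in RT1-Ba. Across all 33469 promoters of the same length, 0.427% held GCAAC followed by ATTGG with 15 to 40 bases between. Among the 10 markers RT1-Da alone had that arrangement. Among 6 listed class II chains with a promoter, 4 had it, namely RT1-Db1, RT1-Ba, RT1-DOb and RT1-DOa. Cd74 held GCAAC 70 bases before the start and CCAAT 189 bases before it, which is another order and spacing. Each motif by itself was frequent, on either strand: 29.5% of all promoters held GCAAC and 34% held ATTGG, against 5 and 6 of the 10 markers. A match is a run of letters and says nothing of what binds there.

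For the myeloid receptors and lysozyme, the promoters of Csf1r (chr18:56834129-56834378, plus), Lyz2 (chr7:54798012-54798261, minus) and Mrc1 (chr17:82157475-82157724, plus) are shown in the same way. Capitals mark GAGGAA, a core of the site bound by PU.1, which reads TTCCTC on the other strand.
Csf1r: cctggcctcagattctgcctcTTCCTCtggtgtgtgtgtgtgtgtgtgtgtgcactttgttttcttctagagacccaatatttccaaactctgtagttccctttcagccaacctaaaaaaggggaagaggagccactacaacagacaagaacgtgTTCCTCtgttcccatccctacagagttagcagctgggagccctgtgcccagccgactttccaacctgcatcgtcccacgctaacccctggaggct
Lyz2: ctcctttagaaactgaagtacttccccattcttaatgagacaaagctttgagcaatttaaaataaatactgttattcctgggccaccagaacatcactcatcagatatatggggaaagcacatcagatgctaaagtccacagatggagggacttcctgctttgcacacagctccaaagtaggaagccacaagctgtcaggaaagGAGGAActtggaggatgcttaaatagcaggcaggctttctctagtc
Mrc1: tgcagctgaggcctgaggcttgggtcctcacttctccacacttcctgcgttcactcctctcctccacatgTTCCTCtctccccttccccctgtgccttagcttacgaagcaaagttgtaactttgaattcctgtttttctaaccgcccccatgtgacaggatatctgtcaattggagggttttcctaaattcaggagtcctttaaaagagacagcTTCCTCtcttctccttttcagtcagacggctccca
The motif GAGGAA, on either strand, occurred in 23.3% of all promoters and in 8 of the 10 markers, all but Cd163 and RT1-Da. Lyz2 held it 46 bases before its start, Csf1r at 95 and 229 bases, and Mrc1 at 35 and 180 bases. All 10 markers had a promoter in the RefSeq table, Itgam included.

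The libraries held 50833480 to 147650284 counts (median 110699836), and 3 counts were worth 0.021 to 0.0794 CPM (counts scaled to a common library size). Member counts per library ran from 65 to 25709, so each member stood well above that floor in every library. The tissue carried the markers of muscle fibres, with 110322 to 213439 summed CPM over 10 myofibre genes against 0.780 to 1.39 over the epithelial list. Blank library 1 was the shallowest and stood apart, with 32.9% of its counts on mitochondrial genes against 13.4% to 17.7% in the others. Values below are CPM scaled by edgeR's TMM factors, fold changes are log2 values from edgeR's quasi-likelihood fit ± SE, and adjusted p-values are from its F test with Benjamini-Hochberg adjustment over the 16256 genes tested. Single markers are compared with each other by level only as FPKM, which is scaled by length. Sums over lists are in CPM and are not.

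By FPKM, Cd74 was the highest of the 9 markers, with a median over the 9 libraries of 31.9, followed by Lyz2 at 19.9 and RT1-Da at 8.95. Csf1r (5.26), Mrc1 (3.49), Cd163 (3.02) and Cd68 (2.12) stood in the middle, and Adgre1 (0.786) and Ptprc (0.228) were lowest. In the blank group the neighbours in this order overlapped within their spread except at 2 steps. Cd74, Lyz2 and RT1-Da, at 50.2 ± 22.5, 31.3 ± 18.7 and 20.3 ± 13.3 FPKM (mean ± SD, n = 3), lay within each other's spread, as did Mrc1 at 3.89 ± 2.01, Cd163 at 2.76 ± 0.525 and Cd68 at 2.67 ± 0.549. Adgre1, at 1.11 ± 0.295, and Ptprc, at 0.372 ± 0.0890, were each separated from the gene above them.

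Ptprc encodes CD45, the phosphatase carried by all nucleated cells of the blood lineage (ENSRNOG00000000655, chr13:49596193-49708692, minus strand, mRatBN7.2). Its levels in blank libraries 1, 2 and 3 were 8.66, 7.00 and 4.44 CPM, in the SUI libraries 2.36, 2.26 and 1.71, and in the stimulated libraries 1.13, 7.41 and 3.85. All SUI libraries lay below all blank libraries, while the stimulated libraries spread from under the lowest SUI value to between the highest blank values. The SUI mean of 2.11 ± 0.354 CPM (SD, n = 3) was 3.18-fold below the blank mean of 6.70 ± 2.12. The log2 fold change was -1.66 ± 0.56 with an adjusted p of 0.549. With limma it was -0.26 on log2(FPKM + 1) and -0.96 on log2(FPKM + 0.1). Ptprc lay below 1 FPKM in all blank and SUI libraries, so adding 1 compresses the former. Stimulated against SUI differed by 0.97 ± 0.55 (adjusted p = 0.716), and by 0.24 without stimulated library 2. In muscle RNA, fewer cells of a type and less RNA per cell cannot be told apart, and this holds for every marker below.

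Adgre1 encodes F4/80, an adhesion receptor of macrophages (chr9:2242474-2398000, plus strand). It measured 4.16, 4.35 and 5.02 CPM in the blank libraries, 1.45, 2.26 and 0.668 in the SUI libraries, and 1.48, 6.62 and 3.15 in the stimulated libraries. As for Ptprc, the blank and SUI libraries did not overlap, and stimulated library 1 sat among the SUI values. The SUI mean was 3.09-fold below the blank mean (log2 fold change -1.63 ± 0.56, adjusted p = 0.549). With limma the difference was -0.58 on log2(FPKM + 1) and -1.32 on log2(FPKM + 0.1). Stimulated libraries were higher than SUI libraries by 1.36 ± 0.56 (adjusted p = 0.575), and by 0.66 without stimulated library 2.

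Csf1r, the receptor of the growth factors CSF1 and IL-34 on which macrophages depend (chr18:54546659-54590415, plus strand), overlapped in all 3 groups. It measured 15.1, 26.8 and 30.1 CPM in the blank libraries, 23.4, 17.2 and 9.22 in the SUI libraries, and 5.85, 50.0 and 24.7 in the stimulated libraries. The lowest and the highest of the 9 values both came from the stimulated group. The differences were -0.53 ± 0.63 for SUI against blank (adjusted p = 0.792) and 0.69 ± 0.63 for stimulated against SUI (adjusted p = 0.851), and the latter was -0.12 without stimulated library 2. The former was -0.24 without SUI library 3 and -0.88 without SUI library 1. Of its ligands, named after their values were seen, Csf1 measured 21.6, 10.8 and 12.5 CPM in blank, 34.6, 12.6 and 6.98 in SUI, and 4.41, 16.5 and 9.41 in stimulated libraries. Il34 ranged from 0.953 CPM in blank library 1 to 7.80 in stimulated library 2.

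**Figure D1:**
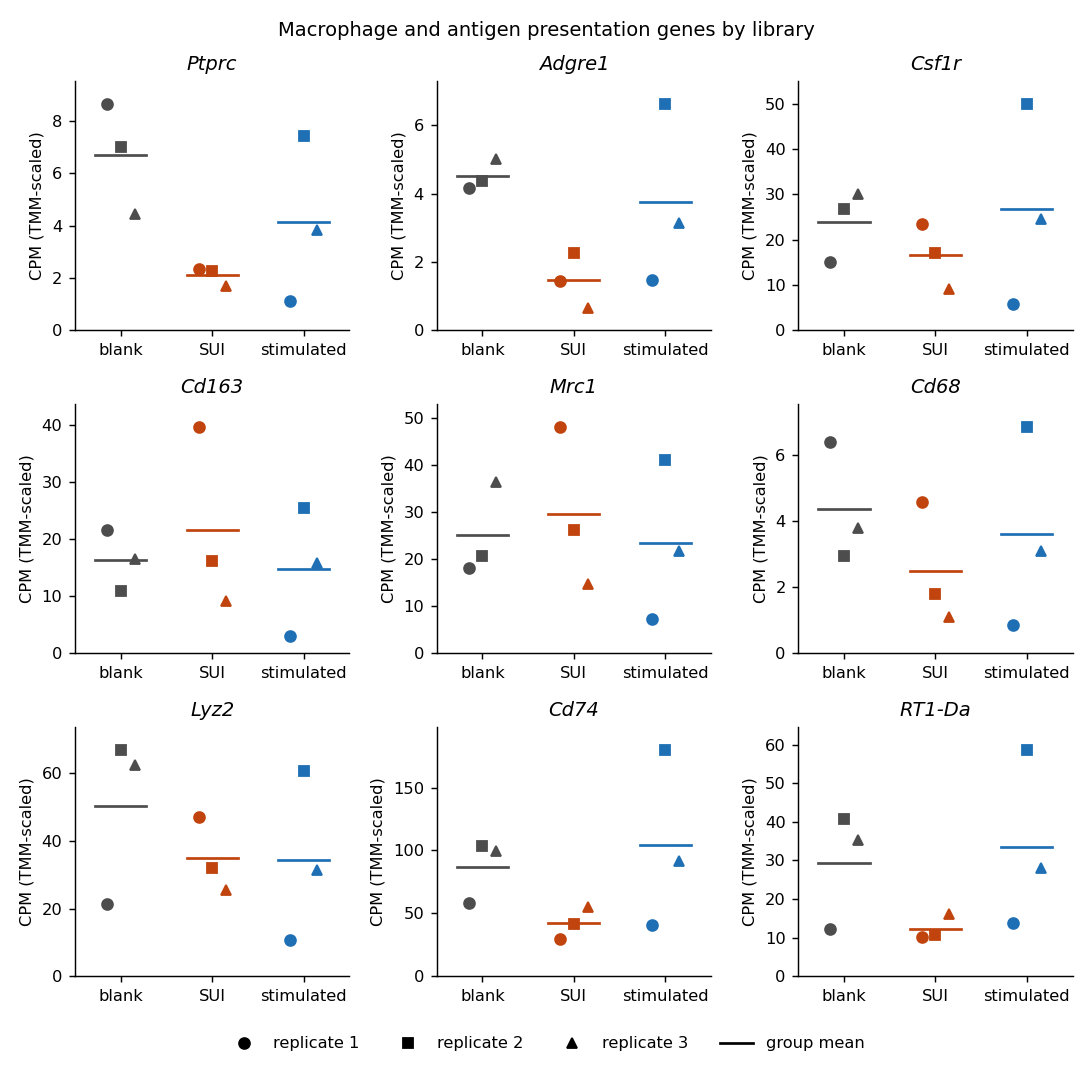
Level of the 9 markers in each library (CPM, linear axes from 0), with 1 point per library and a line at each group's mean of 3 libraries. Ptprc, Adgre1 and Cd74 are lower in every SUI library than in every blank library, and stimulated library 2 is the highest of all for 5 markers.

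Both scavenger receptors had another order of libraries. Cd163, which takes up haemoglobin bound to haptoglobin (chr4:157085093-157117878, plus strand), measured 21.7, 10.97 and 16.6 CPM in blank, 39.8, 16.2 and 9.17 in SUI, and 3.13, 25.5 and 15.9 in stimulated libraries. Mrc1, the mannose receptor CD206 (chr17:77249187-77330857, plus strand), measured 18.1, 20.7 and 36.5 CPM in blank, 48.2, 26.2 and 14.6 in SUI, and 7.37, 41.0 and 21.7 in stimulated libraries. SUI library 1 was the highest of all 9 for both, and stimulated library 1 the lowest. Cd163 was 0.41 ± 0.70 higher in SUI than in blank (adjusted p = 0.852), and Mrc1 0.24 ± 0.59 higher (adjusted p = 0.902). Without SUI library 1 these became -0.38 and -0.31. Against SUI, the stimulated group was at -0.55 ± 0.70 for Cd163 (adjusted p = 0.909) and -0.34 ± 0.59 for Mrc1 (adjusted p = 0.946), and without SUI library 1 at 0.24 and 0.21. The same SUI library held 37.1 CPM of Hmox1, the haem-degrading oxygenase, against 1.87 to 10.2 in the other libraries, and 265 CPM of the lysosomal protease Ctsl, against 42.8 to 88.3. What part this has in the levels of both receptors was not tested.

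Cd68, a glycoprotein of the lysosomal membrane (chr10:54381815-54383697, minus strand), measured 6.38, 2.95 and 3.80 CPM in blank, 4.58, 1.81 and 1.10 in SUI, and 0.869, 6.86 and 3.09 in stimulated libraries. Lyz2, the lysozyme of myeloid cells (chr7:52906811-52912106, minus strand), measured 21.3, 67.0 and 62.4 CPM in blank, 47.0, 32.0 and 25.4 in SUI, and 10.8, 60.7 and 31.4 in stimulated libraries. For both genes the 3 groups overlapped, and stimulated library 1 was the lowest of the 9. Cd68 was at -0.80 ± 0.72 in SUI against blank (adjusted p = 0.732) and at 0.53 ± 0.71 in stimulated against SUI (adjusted p = 0.918), which became -0.33 without stimulated library 2. Lyz2 was at -0.53 ± 0.59 (adjusted p = 0.777) and at -0.02 ± 0.58 (adjusted p = 0.998). In SUI against blank, Cd68 was at -0.40 without blank library 1 and at -1.59 without SUI library 1. Lyz2 was at -0.27 without blank library 2 and at -0.87 without blank library 1.

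The antigen presentation genes were lower in SUI and higher after stimulation by mean level. Cd74, the invariant chain (chr18:54256778-54266003, plus strand), measured 58.2, 104 and 99.4 CPM in blank, 29.6, 41.4 and 55.3 in SUI, and 40.6, 180 and 91.9 in stimulated libraries. Blank and SUI did not overlap, though blank library 1 and SUI library 3 lay close together, and stimulated library 1 fell among the SUI values. The log2 fold change was -1.05 ± 0.48 for SUI against blank (adjusted p = 0.607). For stimulated against SUI it was 1.31 ± 0.48, or 2.48-fold by means (adjusted p = 0.535), and 0.66 without stimulated library 2.

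RT1-Da, an alpha chain of the rat class II molecule RT1.D (chr20:4512911-4518455, plus strand), measured 12.3, 40.7 and 35.3 CPM in blank, 10.1, 10.8 and 16.1 in SUI, and 13.9, 58.7 and 28.1 in stimulated libraries. Blank library 1, the one with the high mitochondrial share, lay among the SUI values, and the other blank libraries lay above all of them. SUI was lower than blank by mean level (log2 fold change -1.26 ± 0.54, adjusted p = 0.600), and without blank library 1 the value was -1.61. Stimulated libraries were 2.72-fold above SUI by means, at 1.44 ± 0.55 on the log2 scale (adjusted p = 0.543), and at 0.77 without stimulated library 2. RT1 genes have close copies, and what part the sharing of reads among them by the authors' counting has in these levels was not tested.

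Other genes of the class II pathway came from a list of 18, all tested. In SUI against blank 14 were lower, with a median log2 fold change of -0.65 against 0.01 for all genes, and in stimulated against SUI 15 were higher, with a median of 0.49 against 0.02. None passed the adjusted threshold in edgeR, and 3 had an unadjusted p under 0.05 in each of these directions, beside 5.34% and 5.23% of all genes. RT1-Ba, the alpha chain of RT1.B, measured 7.33, 19.2 and 16.5 CPM in blank, 4.73, 2.14 and 6.34 in SUI, and 6.50, 20.7 and 10.2 in stimulated libraries. Its SUI values lay below those of both other groups, by a small margin at stimulated library 1. Each comparison taken alone, 7.77% of all genes were so placed against blank and 9.52% against stimulated libraries. The log2 fold changes of RT1-Ba were -1.71 ± 0.54 (adjusted p = 0.524) and 1.50 ± 0.53 (adjusted p = 0.521). Its beta chain partner RT1-Bb was at -1.60 ± 0.53 and 1.22 ± 0.53, and RT1-Db1, the beta chain of RT1.D, at -1.14 ± 0.61 and 1.52 ± 0.61. Rfx5, a subunit of the factor that binds the X box, was at -0.54 ± 0.22 in SUI against blank. Ciita, named after its values were seen, was rare, with 0.530, 1.99 and 1.08 CPM in blank, 0.292, 0.362 and 0.719 in SUI, and 0.320, 2.05 and 0.529 in stimulated libraries. Of the 20 MHC class I genes listed, 7 had no row, the classical RT1-A1 and RT1-A2 among them. Of the 13 tested, 6 were lower in SUI against blank (median 0.01) and 9 higher in stimulated against SUI (median 0.20).

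Across the 9 markers, none passed an adjusted p of 0.05 in any of the 3 comparisons, with edgeR, with DESeq2, with voom, or with limma on FPKM. SUI against blank had 7 markers lower and 2 higher (Cd163 and Mrc1), with a median log2 fold change of -0.80 against 0.01 for all genes, of which 49.2% were lower. An unadjusted edgeR p under 0.05 with a lower level was found for 3 markers (Ptprc, Adgre1 and RT1-Da), as for 5.34% of all genes tested (8.18% in either direction), and 3 markers (Ptprc, Adgre1 and Cd74) did not overlap between the groups, as for 7.77% of all genes. The adjusted threshold was passed by 0% of genes in edgeR and 1.08% in DESeq2.

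Stimulated against SUI, which shares the SUI libraries with the first comparison, had 6 markers higher and 3 lower (Cd163, Mrc1 and Lyz2). The median was 0.69 against 0.02 for all genes, of which 52.6% were higher. An unadjusted p under 0.05 with a higher level was found for 3 markers (Adgre1, Cd74 and RT1-Da), as for 5.23% of all genes. For none of the markers were the groups apart, which was so for 9.52% of all genes in the higher direction. The adjusted threshold was passed by 0.0123% of genes in edgeR and 1.28% in DESeq2. Stimulated against blank had 3 markers higher (Csf1r, Cd74 and RT1-Da) and 6 lower, beside 45.7% of all genes lower, a median of -0.14 against 0.04, and no marker at an unadjusted p under 0.05, which 3.77% of all genes reached in either direction. In that comparison 0.00615% of genes passed the adjusted threshold in edgeR and 0.129% in DESeq2. In the 20 alternative fits or subsets of each comparison, Ptprc, Adgre1, Cd74 and RT1-Da kept a negative difference in SUI against blank and a positive one in stimulated against SUI.

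**Figure D2:**
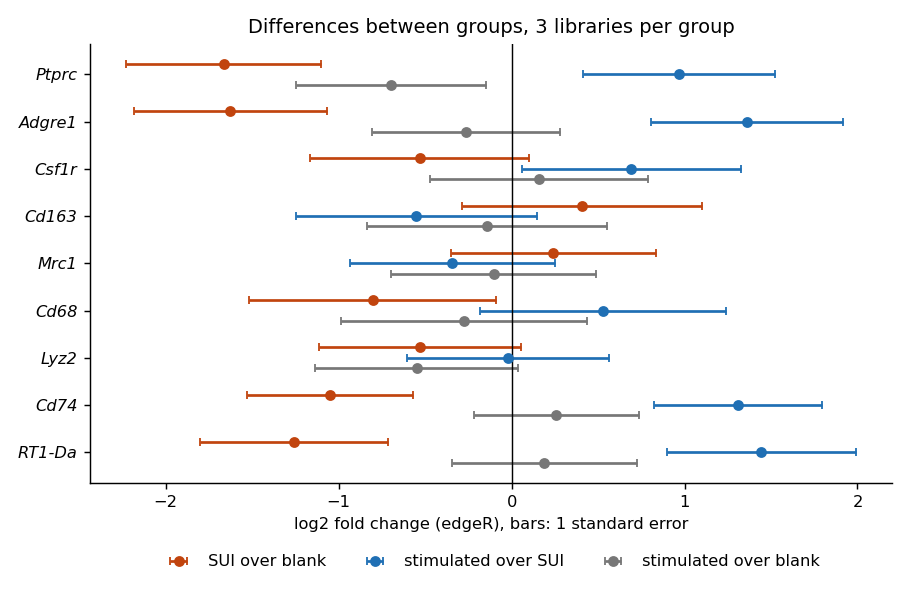
Log2 fold change of each marker (edgeR estimate, bars ± 1 SE) for the 3 comparisons, with a line at 0. Ptprc, Adgre1, Cd74 and RT1-Da lie furthest below 0 in SUI against blank, and Adgre1, Cd74 and RT1-Da furthest above 0 in stimulated against SUI.

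The markers varied together from library to library, most of all within the stimulated group. Stimulated library 2 was the highest of 9 for 5 markers (Cd68, Csf1r, Adgre1, Cd74 and RT1-Da) and among the 2 highest for 8, while stimulated library 1 was the lowest for 6 (Ptprc, Cd68, Cd163, Mrc1, Csf1r and Lyz2). With each marker centred on its own mean, the mean log2 CPM was -1.41 in stimulated library 1, 1.16 in library 2 and 0.19 in library 3. The blank libraries were at 0.15, 0.47 and 0.60, and the SUI libraries at 0.04, -0.34 and -0.86. The spread within the stimulated group thus covered the other 6 libraries. As a difference of group means, SUI minus blank was -0.80 (pooled SD 0.36) and stimulated minus SUI was 0.37 (pooled SD 0.97). Without stimulated library 2 the second value was -0.22, and without stimulated library 1 it was 1.06. Stimulated against blank was -0.43 (pooled SD 0.93), with -1.02 and 0.27 without these libraries in turn.

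**Figure D3:**
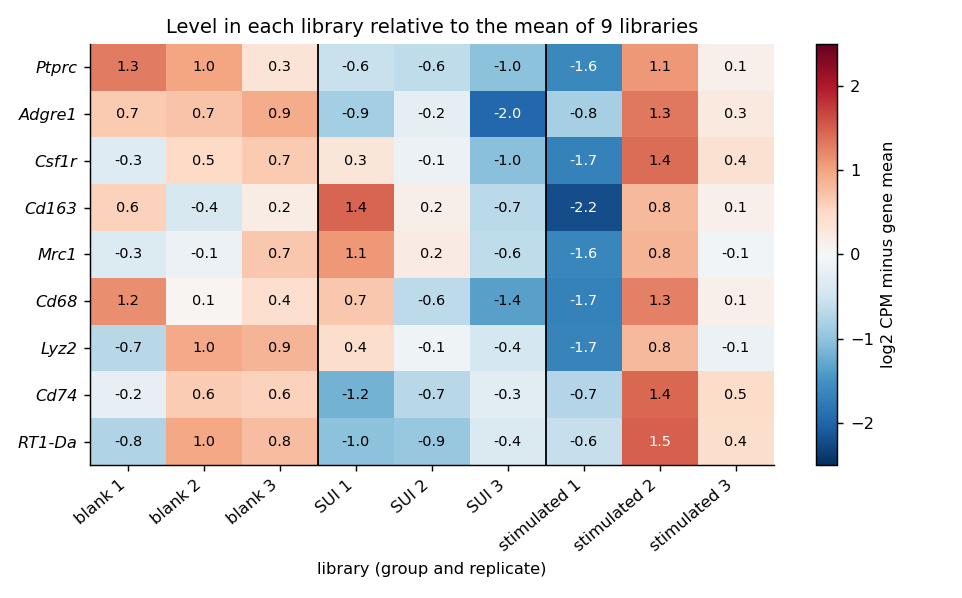
Log2 CPM of the 9 markers in each library, centred on each marker's mean over the 9 libraries. Stimulated library 2 is above the mean for all 9 markers, stimulated library 1 and SUI library 3 are below it for all 9, and SUI library 1 is highest for Cd163 and Mrc1 and lowest for Cd74 and RT1-Da.

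Over the 9 libraries, which share depth and group differences, log2 CPM of Cd74 and RT1-Da correlated at r = 0.96 (Spearman 0.92), of Cd163 and Mrc1 at 0.91 (0.83), of Csf1r and Lyz2 at 0.90 (0.87) and of Ptprc and Adgre1 at 0.85 (0.80). Between the scavenger receptors and the class II genes r was lower, at 0.06 for Cd163 with RT1-Da, 0.13 for Cd163 with Cd74, 0.28 for Mrc1 with RT1-Da and 0.27 for Mrc1 with Cd74. SUI library 1 sat at opposite ends for these pairs, highest for Cd163 and lowest for RT1-Da and Cd74. The differences between markers within a library were also given as log2 ratios over Ptprc. For the mean of Cd163 and Mrc1 the ratios were 1.19, 1.11 and 2.47 in blank, 4.21, 3.19 and 2.76 in SUI, and 2.09, 2.13 and 2.27 in stimulated libraries. The SUI ratios did not overlap with either other group. Of 14633 genes, 80.5% also had a single-gene ratio over Ptprc that was higher in every SUI than in every blank library. Among 8 markers it was so for 3 (Cd163, Mrc1 and Lyz2). Ptprc itself was lower in every SUI than in every blank library, which raises this ratio in SUI for any gene of steady level. The 80.5% thus depends on Ptprc and cannot serve as a background for the first separation. A ratio lower in every stimulated than in every SUI library was found for 1.89% of the genes. Ptprc was lowest of all in stimulated library 1, which raises the ratio there for any gene of steady level. That share thus depends on Ptprc itself and cannot serve as a background for the second separation. For the mean of Lyz2 and Cd68 the ratios were 0.431, 1.01 and 1.79 in blank and 2.63, 1.75 and 1.63 in SUI libraries. All SUI ratios lay above the stimulated ones, as for Cd163 and Mrc1, while blank and SUI overlapped. The stimulated libraries were at 1.44, 1.46 and 1.36, although their levels of Lyz2 ran from 10.8 to 60.7 CPM. By FPKM, where the implied length of Ptprc enters, these ratios were 4.90, 3.69 and 4.80, and those of Cd163 and Mrc1 in the same libraries 3.58, 2.46 and 3.81, so the close agreement held by CPM alone. Class II genes over Ptprc were at 1.63, 3.21 and 3.74 in blank, 2.87, 3.23 and 4.13 in SUI, and 4.40, 3.80 and 3.72 in stimulated libraries, with overlap between neighbouring groups.

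The gene length that the deposited counts and FPKM imply varied little for 7 of the 9 markers, the widest of these being Cd163 at 5.08 to 5.77 kb, and varied more for Ptprc and RT1-Da. For Ptprc it was 7.25 kb in stimulated library 2 and 16.2 to 16.9 kb in the other 8, so that by FPKM stimulated library 2 was the highest for Ptprc, at 1.12 against 0.454 in blank library 2, whereas by CPM blank library 1 was the highest. Of 9624 genes with at least 100 counts in every library, 6 (0.0623%) had an implied length in stimulated library 2 of at most 0.5 times the median of the other 8, a threshold set after the values were seen. RT1-Da had an implied length of 1.44 to 1.46 kb in 5 libraries (blank 2 and 3, SUI 1, stimulated 2 and 3) and 1.76 to 1.82 kb in 4 (blank 1, SUI 2 and 3, stimulated 1). RSEM estimates length from the transcripts to which it assigns reads, and which transcripts these were is not analysed here.

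**Figure D4:**
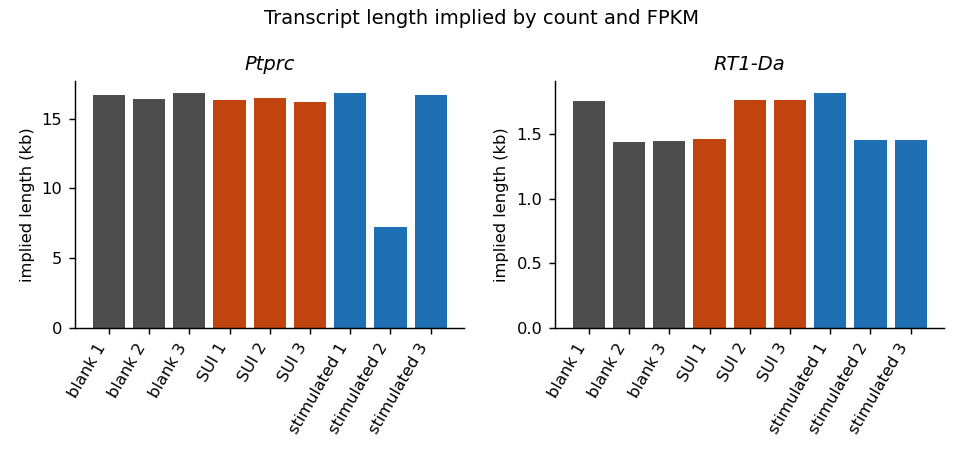
Gene length in kb implied by counts and FPKM for Ptprc and RT1-Da, 1 bar per library from 0. Ptprc is at 7.25 kb in stimulated library 2 and above 16 kb elsewhere, and RT1-Da falls into a shorter and a longer class of libraries.

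The genes whose pattern over the 9 libraries was closest to the markers' mean, among 11258 genes with a mean CPM of at least 1, were Ccl24 (r = 0.979), Nckap1l (0.973), Cybb (0.972), Tpst1 (0.966), Folr2 (0.966), Ccl6 (0.962), Tlr8 (0.953), Arhgap9 (0.951), Dcn (0.950) and Sema4a (0.948). Symbols that are only identifiers, such as those starting with LOC or RGD, were left out of the comparison. Of the 10 genes, 5 stood in the gene lists used here, which held 279 of the 16256 genes tested. How many of the 279 were among the 11258 genes compared was not counted, so that share is no background for the 5. Ccl24 and Ccl6 are chemokines, Cybb is the catalytic subunit of the phagocyte oxidase, and Dcn encodes decorin of the extracellular matrix. Ccl6 measured 5.80, 7.204 and 6.66 CPM in blank, 3.65, 1.62 and 0.853 in SUI, and 0.915, 15.2 and 3.57 in stimulated libraries. These genes were picked for this pattern, so their order of libraries follows from the choice. In all, 52 genes had an r of at least 0.9, and the median r was -0.06.

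Of 36 other macrophage genes tested, 25 were lower in SUI against blank (median -0.33) and 21 higher in stimulated against SUI (median 0.16), none past the adjusted threshold. Over all genes 49.2% were lower in the first and 52.6% higher in the second comparison, so the second count was near the background. The summed level of this list was 188 to 550 CPM in blank, 455 to 662 in SUI and 512 to 704 in stimulated libraries. By this sum the groups overlapped, and the lowest value was in a blank library. Ccr2, the chemokine receptor of recruited monocytes, measured 3.34, 3.22 and 2.43 CPM in blank, 0.629, 0.524 and 1.12 in SUI, and 0.0839, 1.72 and 0.280 in stimulated libraries. It was lower than blank in both operated groups without overlap. Each comparison taken alone, this held for 7.77% of all genes in SUI and 4.72% in stimulated libraries. The log2 fold change of Ccr2 was -1.98 ± 0.86 in SUI (adjusted p = 0.600) and -2.10 ± 0.86 in stimulated libraries (adjusted p = 0.898), while Cd74 and RT1-Da were at 0.26 and 0.19 in the latter. Trem2, a lipid receptor of macrophages, was at 2.87 ± 1.17 in stimulated against SUI, and Axl, a receptor for dying cells, at 1.18 ± 0.42 (adjusted p = 0.575 and 0.521). Axl reached 62.4 CPM in stimulated library 2 and 13.1 to 31.6 elsewhere. Of 17 genes of the CSF1 axis and chemokines, 9 were lower in SUI (median -0.46), a share near that of all genes, and 12 higher in stimulated libraries (median 0.28), none past the adjusted threshold. Macrophage activation genes were lower in SUI for 9 of 15 and higher in stimulated libraries for 7 (medians -0.13 and -0.005). For 18 lysosome genes the counts were 8 and 9 (medians 0.04 and 0.05). Repair macrophage genes gave 6 and 7 of 9 (-0.46 and 0.38), and dendritic cell genes 4 and 5 of 7 (-0.16 and 0.55). Of 11 genes that handle haemoglobin and iron, 10 were higher in SUI than in blank (median 0.45) and 8 lower in stimulated than in SUI libraries, none at an unadjusted p under 0.05 and none without overlap. Their mean centred log2 CPM was -0.84, 0.07 and 0.21 in blank and 0.84, -0.27 and 0.08 in SUI libraries, so the groups overlapped and SUI library 1 and blank library 1 lay at the ends.

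Markers of several other cell types had the same directions as the macrophage markers, and those of others did not. Over all genes 49.2% were lower in SUI against blank and 52.6% higher in stimulated against SUI, and no gene of these lists passed the adjusted threshold in edgeR. Of 20 pan-leukocyte genes, 18 were lower in SUI against blank (median -0.83) and 18 higher in stimulated against SUI (median 0.58). An unadjusted p under 0.05 was found for 4 of them as lower in SUI, beside 5.34% of all genes, and 6 did not overlap between blank and SUI, beside 7.77% of all genes. Their summed level was 87.2 to 130 CPM in blank, 55.5 to 75.6 in SUI and 52.9 to 156 in stimulated libraries. Of the markers that define lymphocytes, Cd3e was at 0 in 4 libraries, where 3 counts would be worth 0.0229 to 0.0308 CPM, and at most 0.288 CPM, and Cd8a at most 0.185. Of 8 T cell genes tested, 7 were lower in SUI against blank (median -0.89) and 8 higher in stimulated against SUI (median 0.58). The T cell list summed to 5.08 to 14.2 CPM in SUI and 15.6 to 21.1 in blank. It included Cd4, which rat macrophages also express and which gave 28.3 of the 30.7 CPM of the list in stimulated library 2. All 11 fibroblast genes of the fibro-adipogenic progenitor list were lower in SUI (median -0.67) and higher in stimulated libraries (median 1.48). Their sum was 1952 to 2479 CPM in blank, 1480 to 1862 in SUI, and 1478 to 4302 in stimulated libraries, with the lowest and highest in stimulated libraries 1 and 2. Col1a1, the collagen I chain, was at -2.30 ± 0.58 (adjusted p = 0.432) and 2.44 ± 0.59 (adjusted p = 0.332). Of 19 interferon response genes, 14 were lower in SUI against blank (median -0.37) and 16 higher in stimulated against SUI (median 0.82), and their sum was 345 CPM in stimulated library 2 against 148 to 188 in the others. The mast cell list reached 24.5 CPM in that library against 4.38 to 11.6 elsewhere. Of 7 Schwann cell genes, 6 were lower in SUI against blank (median -0.75) and 6 higher in stimulated against SUI (median 0.58). All 4 erythroid genes tested were lower in SUI (median -1.16) and higher in stimulated libraries (median 1.24). The summed erythroid level, mostly from the haemoglobin chain Hba-a2 and a sign of the blood in the sample, was 1152, 849 and 234 CPM in blank, 641, 170 and 267 in SUI, and 327, 277 and 1823 in stimulated libraries. It was highest in stimulated library 3, while the markers' mean was highest in stimulated library 2. Hba-a1, Hbb and Hbb-bs of the erythroid list had no row and do not enter this sum. All 7 adipocyte genes were higher in SUI than in blank (median 0.52), and 4 of 7 lower in stimulated against SUI. Of 10 endothelial genes, 6 were higher in SUI than in blank and 8 higher in stimulated against SUI. Of 10 myofibre genes, 8 were lower in SUI against blank (median -0.19) and 10 higher in stimulated against SUI (median 0.18). Of 8 smooth muscle and pericyte genes, 6 were lower in the first comparison (median -0.27) and 8 higher in the second (median 0.27). The part of these other cells in the levels of the markers was not tested.

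**Figure D5:**
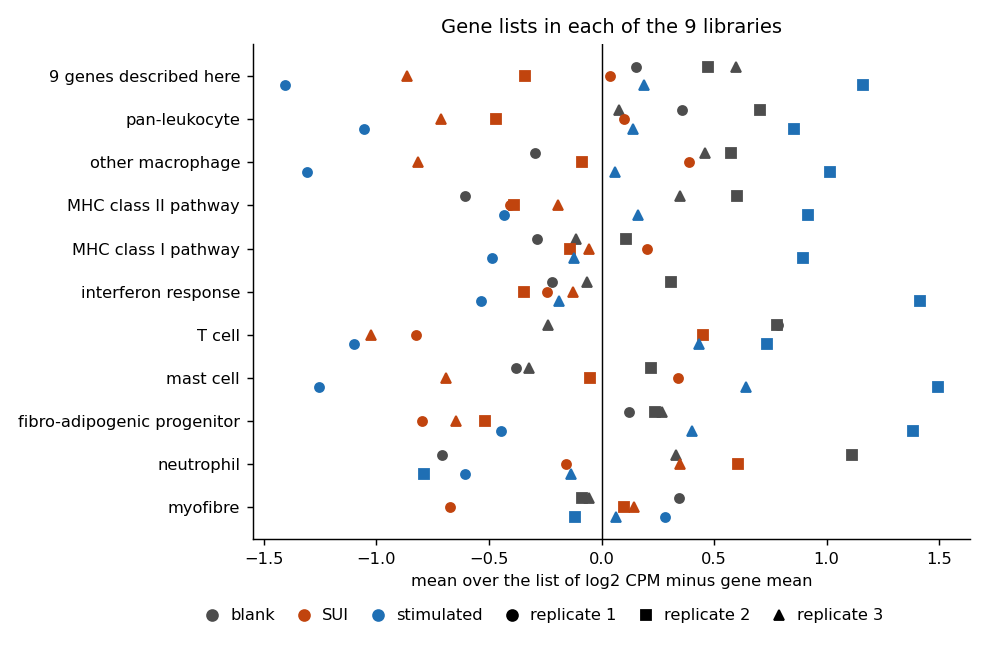
Mean centred log2 CPM of the markers and of 10 other gene lists in each library, 1 point per library. For the markers, stimulated library 2 is at the top and stimulated library 1 at the bottom, at 1.16 and -1.41.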

How the data were processed

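RNA of 9 libraries was analysed, 3 each from the blank, SUI and stimulated groups, with group and number taken from the titles. Build mRatBN7.2 and the tools RSEM 1.3.1, Bowtie2 and DESeq2 1.4.5 are listed, with no role, in the submitters' processing notes. The authors deposited expected counts, which are whole numbers in the tables, and FPKM values, which scale fragments by gene length and library size, per the file headers. The sources used here do not give the strand setting of the counting, so overlapping antisense genes cannot be told apart.

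Counts were filtered with filterByExpr (16256 genes left), scaled by TMM and tested by the robust quasi-likelihood F test of edgeR 4.0.16 in R 4.3.3, on all 9 libraries together, with Benjamini-Hochberg adjustment at 0.05. The SE is the size of the log2 fold change over the square root of F. Log2 CPM used a prior count of 2. The script was tested on simulated data. Alternatives were DESeq2 1.42.0, voom with sample weights (limma 3.58.1), limma on log2(FPKM + 1) and log2(FPKM + 0.1), other scalings and filters, a replicate block, and each library left out. A removal of the trend with gene length, the counts of markers called and the ratios by FPKM were added after seeing the data.

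The members and the 25 gene lists (336 genes named, 316 with a row, 279 tested) were chosen with earlier results of these data known, so no p-value is given for a list. Named were all members, up to 4 genes per described list by the smallest edgeR p over the comparisons with SUI, and the 10 genes closest to the members' mean pattern. Promoters were read from RefSeq on GRCr8, which is not the build of the counts. Depth was 50833480 to 147650284 counts, and the value of 3 counts, 0.021 to 0.0794 CPM, covers counting error only. No within-group pair of libraries was a duplicate.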

Additional observations from a re-analysis of the deposited data

How the results depend on the processing

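No marker was called in any of the 60 alternatives. Of the recomputed log2 fold changes of markers 507 kept their direction and their side of the threshold, and 33 changed sign. Signs changed on leaving out a library, over these ranges: in SUI against blank, Cd163 -0.38 to 0.77 and Mrc1 -0.31 to 0.62. In stimulated against SUI the ranges were Cd68 -0.33 to 1.32, Cd163 -1.19 to 0.24, Mrc1 -1.03 to 0.21, Csf1r -0.12 to 1.17 and Lyz2 -0.72 to 0.41. In stimulated against blank they were Cd68 -1.14 to 0.19, Cd163 -0.78 to 0.34, Mrc1 -0.79 to 0.32, Csf1r -0.65 to 0.64, Adgre1 -0.96 to 0.12, Cd74 -0.39 to 0.64 and RT1-Da -0.49 to 0.56. Other sign changes were Mrc1 in SUI against blank with voom (-0.29), Lyz2 in stimulated against SUI at a mean CPM of at least 1 (0.012) and, in stimulated against blank, Ptprc with log2(FPKM + 1) (0.033), Cd163 with library totals (0.034) and voom (0.020), Csf1r with voom (-0.31), log2(FPKM + 1) (-0.059) and log2(FPKM + 0.1) (-0.16), Cd74 with voom (-0.14) and RT1-Da with voom (-0.37). The cause was not tested. The mean shift of the markers in SUI against blank was -0.31 with log2(FPKM + 1), -0.51 with log2(FPKM + 0.1), -0.48 as a median over markers, and -1.01 to -0.56 on leaving out a library.

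Genes called in SUI against blank numbered 0 with edgeR (1329 at an unadjusted p under 0.05), 176 with DESeq2, and 0 to 1 on leaving out a library, with 1 without stimulated library 2. In stimulated against SUI 2 were called, 1 with library totals, 208 with DESeq2, 41 with voom, 0 with the 6 libraries compared alone, 0 with either FPKM scale, and 0 to 3 on leaving out a library. In stimulated against blank 1 was called, 21 with DESeq2, 0 with 6 libraries, 0 with log2(FPKM + 1), and 0 to 1 on leaving out a library.

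Libraries of the same number did not deviate together: the correlations of their deviations from the group means were -0.22 to 0.11, with 1 of 9 above 0.1, so the numbers give no pairing. With a replicate block 1 gene was called in stimulated against SUI and 0 in stimulated against blank, and Csf1r in stimulated against blank was at -0.040.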

Other observations

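All 8 neutrophil genes tested were lower in stimulated than in SUI libraries by log2 fold change, with a median of -0.99, beside 47.4% of all genes. Of the 9 macrophage markers, 6 were higher and 3 lower in that comparison. None of the 8 genes passed the adjusted threshold in edgeR (0 of 8 at an unadjusted p under 0.05). The list was rare, at 5.17 to 8.92 summed CPM in SUI and 4.06 to 6.12 in stimulated libraries. In SUI against blank 4 of its genes were higher and 4 lower. Mmp9, a gelatinase stored by neutrophils and made by other cells too, measured 3.18, 1.08 and 2.47 CPM in blank, 0.708, 0.0994 and 0.0719 in SUI, and 0.0610, 0.189 and 0.148 in stimulated libraries. It was at -2.92 ± 0.87 in SUI against blank (edgeR adjusted p = 0.504), and no blank library overlapped with an operated one. Each comparison taken alone, 7.77% of all genes were lower without overlap in SUI and 4.72% in stimulated libraries.

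The class I gene RT1-T24-1 measured 40.6 CPM in stimulated library 2 and 1.98 to 4.90 in the other 8. Mx2, an interferon-induced GTPase, measured 26.5 CPM in that library and 0.841 to 6.03 in the others.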
